A study of Homo sapiens with 18 samples.

Results

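Zinc-handling genes were followed in LNCaP cells, a prostate carcinoma line with luminal features that depends on the androgen receptor. All rows named SLC30A or SLC39A followed by a number, MT1 followed by 1 letter, MT2A or MTF1 were taken from the authors' comparison tables, and the pseudogene MT1XP1 was left out. This gave 28 genes of the 27574 analysed: 9 of the SLC30A family, 13 of the SLC39A family, 5 metallothioneins and MTF1. The rule uses names and no measured value, but the set was chosen with earlier results of these data known. Polyadenylated RNA was sequenced in 6 groups of 3 samples, labelled as biological replicas. The groups were enzalutamide with dihydrotestosterone (enzalutamide+DHT), VPC-13789 with DHT (VPC-13789+DHT), DMSO with DHT (DHT), enzalutamide with ethanol (enzalutamide), VPC-13789 with ethanol (VPC-13789), and DMSO with ethanol (vehicle). All groups were kept in stripped serum for 48 h and then treated for 6 h. DHT, the potent androgen made from testosterone, was given at 10 nM, enzalutamide, an antagonist of the androgen receptor, at 1.5 µM and VPC-13789 at 3 µM, so the compounds were compared at different doses. The labels state these doses for the groups with DHT, and they are taken to be the same without it. The series concerns drugs aimed at the androgen receptor through binding function-3, a site other than the hormone pocket. All samples come from 1 cell line, so replicates measure the spread between cultures and not between tumours.

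Zinc enters the cytosol through SLC39A (ZIP) carriers and leaves it, to the outside or into organelles, through SLC30A (ZnT) carriers. Metallothioneins are short cysteine-rich proteins that hold zinc and copper, and MTF1 is the zinc-sensing transcription factor that binds metal response elements in front of metallothionein genes and SLC30A1. Luminal prostate cells are known for storing zinc, which slows mitochondrial aconitase and lets citrate build up, and prostate tumours hold less zinc than the normal gland.

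The promoter stretches below show where the metal response cores of the strongest metallothioneins lie, beside SLC30A1, the textbook MTF1 target among the carriers, and SLC30A10, the member that DHT changed. Each is the 250 bases before a RefSeq start on GRCh38.p14, printed 5′ to 3′ on the gene's strand, and capitals mark the cores TGCACNC and TGCGCNC on either strand.
MT2A, chr16:56608334-56608583, plus strand: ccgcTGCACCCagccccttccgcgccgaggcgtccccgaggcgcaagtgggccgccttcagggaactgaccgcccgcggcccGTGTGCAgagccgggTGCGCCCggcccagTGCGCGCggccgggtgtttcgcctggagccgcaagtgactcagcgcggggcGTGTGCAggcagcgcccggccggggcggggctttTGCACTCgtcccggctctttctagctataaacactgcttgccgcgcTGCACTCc
MT1X, chr16:56682220-56682469, plus strand: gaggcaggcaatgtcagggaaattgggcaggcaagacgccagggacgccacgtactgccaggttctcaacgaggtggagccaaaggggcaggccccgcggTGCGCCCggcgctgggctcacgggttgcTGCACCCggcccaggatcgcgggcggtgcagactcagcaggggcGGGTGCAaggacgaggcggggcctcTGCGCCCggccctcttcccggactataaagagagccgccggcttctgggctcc
SLC30A1, chr1:211579162-211579411, minus strand: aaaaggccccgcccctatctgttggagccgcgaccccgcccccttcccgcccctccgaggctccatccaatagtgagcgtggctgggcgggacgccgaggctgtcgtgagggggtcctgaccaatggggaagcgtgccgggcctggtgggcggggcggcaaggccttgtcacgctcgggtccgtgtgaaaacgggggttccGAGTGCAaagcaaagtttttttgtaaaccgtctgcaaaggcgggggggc
SLC30A10, chr1:219928558-219928807, minus strand: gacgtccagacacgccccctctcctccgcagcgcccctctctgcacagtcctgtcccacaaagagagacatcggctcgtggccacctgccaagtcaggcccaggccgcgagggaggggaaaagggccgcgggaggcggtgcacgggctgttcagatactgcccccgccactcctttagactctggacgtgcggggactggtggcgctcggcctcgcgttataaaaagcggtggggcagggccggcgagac

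The MT2A window held 7 such cores, a number reached by 0.0313% of the 35116 RefSeq promoters of the same length. The MT1H window, not printed, held 8, the most among the members looked up and reached by 0.0171%, yet MT1H averaged only 0.258 normalized counts. The MT1X window held 4, reached by 0.37%, and the SLC30A1 window held 1, as 24.8% of promoters do at least. SLC30A10 had 0 metal cores and 0 copies of AGAACA, the half-site of the androgen response element, searched on both strands and present in 12.4% of promoters. A RefSeq promoter, the one nearest a start of a coding transcript in GENCODE where a gene has several, was looked up for 24 members, of which 12 held at least 1 metal core and 3 held an androgen half-site. SLC39A4 and SLC39A14, both on chromosome 8, were left out of the search, though the shares over all promoters keep that chromosome. MT1F and MT1G had no promoter entry. The SLC30A1 window lies 419 bases from the nearest start of a coding transcript in GENCODE. A match is a run of letters and not a measured binding site, and the absence of one covers this window alone.

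Per kilobase of transcript, 3 metallothioneins had the highest levels among the members, followed by SLC39A7 and SLC30A4, carriers of organelle membranes. Levels are the authors' averages over the 18 samples in normalized counts, here divided by the length of the longest coding transcript in GENCODE release 29. Per kilobase, MT2A averaged 2440, MT1X 1655 and MT1G 1332 normalized counts. SLC39A7 (ZIP7), which releases zinc from the endoplasmic reticulum, averaged 1316 per kilobase and led the carriers. SLC30A4 (ZnT4), which loads zinc into endosomes and secretory vesicles, followed at 783 per kilobase and had the highest average count before division by length, 5602. SLC39A6, SLC39A9, SLC39A4, SLC39A3 and SLC39A14 lay between 385 and 610 per kilobase. Between 49.3 and 266 per kilobase came SLC30A5, SLC30A9, MT1F, SLC39A8, SLC39A11, SLC39A13, SLC30A6, SLC30A1, SLC39A10, MTF1 and SLC30A7. SLC39A1 reached 19.4 per kilobase, SLC30A10 10.2 and SLC30A3 5.60, while SLC30A2, SLC39A2, SLC39A5 and MT1H lay at or under 1.56. Divided by the whole annotated exon length instead, MT1X ranked 6th in place of 2nd and MT1F 16th in place of 13th.

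**Figure D1:**
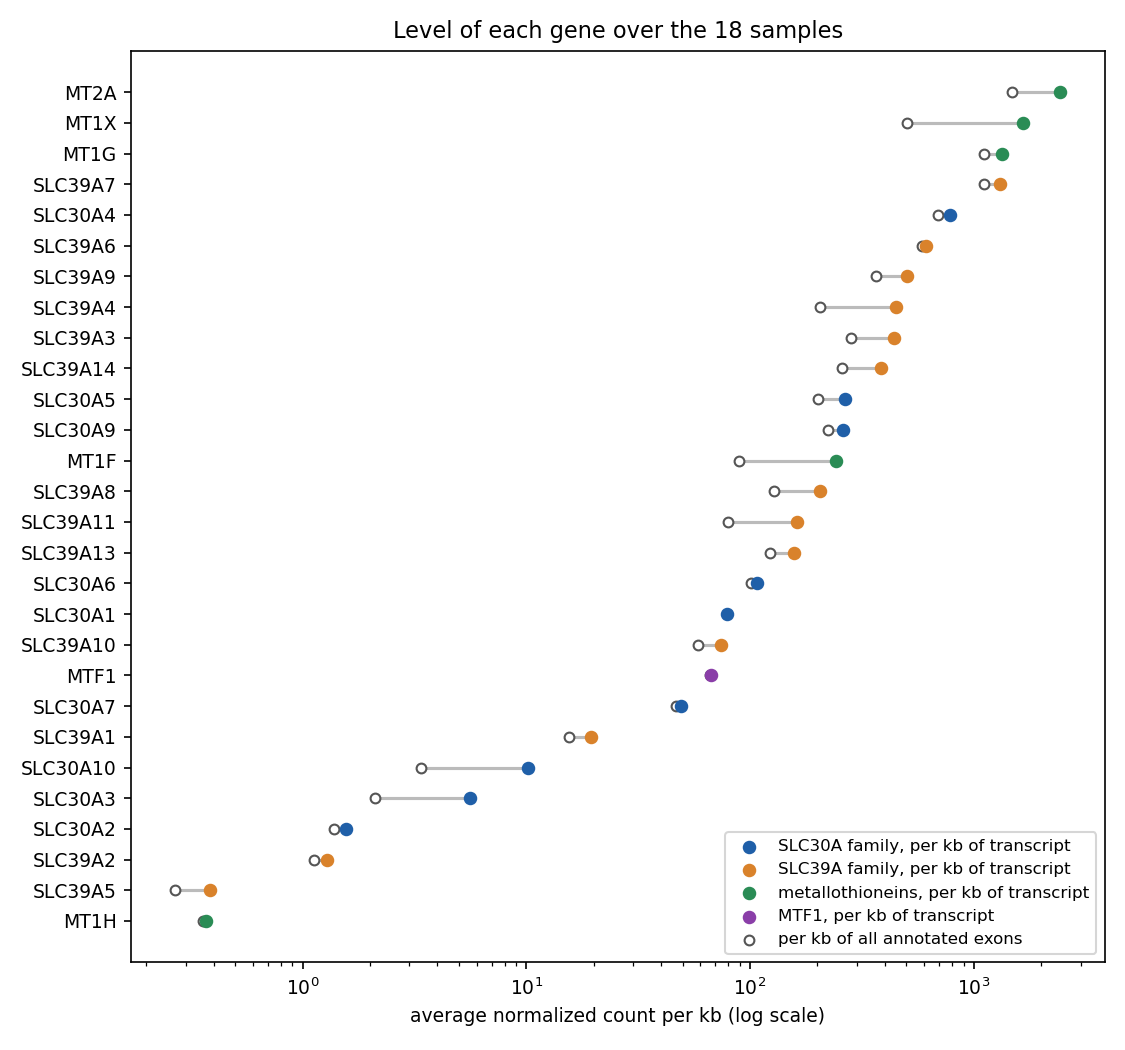
Average level of each of the 28 genes over the 18 samples, in normalized counts per kilobase on a log axis. Filled points use the longest coding transcript (coloured by family) and open points all annotated exons; MT2A is highest on both, and by ratio MT1X and SLC30A10 move most between them.

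The transcripts of these genes share bases with neighbours and relatives, which bears on how reads were assigned. SLC39A1 (ZIP1), a plasma membrane importer long studied in prostate cells, averaged 52.7 normalized counts, and 69.1% of its exonic bases also belong to another annotated gene, 60.8% on the same strand. MT1X shares 18.1% of its exonic bases with AC026461.1 on the same strand, and 55.8% of the 50-base words of its transcript. Shared words made up 14.3% for MT1G, 4.88% for MT2A and 3.59% for MT1F, and 12.7% for SLC39A3. The levels of SLC39A1, MT1X and MT1G are therefore uncertain in absolute terms. Whether the counting used strand is not given in the sources used here, so reads from a gene and an antisense partner cannot be told apart. SLC39A7 has such a partner over 8.58% of its exonic bases and SLC30A5 over 9.20%.

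The cells matched their label. All 10 luminal prostate markers averaged at least 100 normalized counts, against 2 of the 9 markers of basal, stromal and immune cells that the tables hold (COL1A1 at 316 and VIM at 130). DHT raised all 6 androgen response genes checked, by 1.39 (KLK3) to 4.03 (SGK1) on the log2 scale in the authors' deposited table. Against DHT alone, 4 of these 6 fell with enzalutamide+DHT and 4 fell with VPC-13789+DHT in the authors' deposited tables. Of the markers of other cell types, COL3A1 (average 27.1) fell with DHT by 1.48 in the authors' deposited table (adjusted p = 0.00916). The 9 markers summed to 690 normalized counts in VPC-13789+DHT cells and to between 508 and 545 in the other groups; their part in the results was not tested. Members averaging at least 100 numbered 21 of 28. Log2 changes followed the GC content of transcripts in these comparisons, so many values are also given after subtracting the median change of genes with like GC content (GC centred). Of the 6 androgen response genes, GC centring left 4 called lower with enzalutamide+DHT than with DHT. With VPC-13789+DHT it left 2, TMPRSS2 and SGK1.

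SLC30A10, a manganese exporter of the plasma membrane whose loss causes manganese overload, was the member that DHT changed. It lies at chr1:219685427-219958647 on the minus strand, averaged 19.6 normalized counts, and shares 0 exonic bases with other genes. Its level was 15.0 normalized counts in enzalutamide+DHT, 9.73 in VPC-13789+DHT and 5.35 in DHT cells. Without DHT it was 23.7 in enzalutamide, 32.8 in VPC-13789 and 30.8 in vehicle cells. All 3 groups with DHT lay below all 3 without it. These group levels were recovered from the averages and log2 changes and carry no spread of their own. In the authors' deposited table DHT lowered SLC30A10 by 5.75-fold (log2 change -2.52, SE 0.49, adjusted p = 3.66e-05). Among the 83 genes called lower with DHT it had the lowest log2 change, and GC centring gave -2.61 (adjusted p = 2.06e-05), where 1.39% of genes were called in either direction. The level in DHT cells rests on about 5.35 counts a sample, so the size of the fold is loosely set, with a 95% interval of the log2 change from -3.49 to -1.56. In bulk RNA, fewer cells with the transcript and less of it per cell cannot be told apart.

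With a compound present as well as DHT, SLC30A10 lay between its DHT and vehicle levels, but neither difference from DHT passed the test. In the authors' deposited table enzalutamide+DHT exceeded DHT by 1.49 on the log2 scale (SE 0.51, unadjusted p = 0.0037, adjusted p = 0.456), or 1.53 GC centred. VPC-13789+DHT exceeded it by 0.86 (SE 0.54, adjusted p = 0.406) by the authors' deposited table, or 0.51 GC centred. Both comparisons use the same DHT samples as the DHT comparison, so a low value in those samples enters all 3. The log2 change with DHT inside each compound does not use their values. Its SE, however, was built from deposited SE that include the comparison with the DHT samples. VPC-13789+DHT lay 3.37-fold below VPC-13789 (log2 change -1.75, SE 0.47, adjusted p = 0.0271), and the GC-centred change was -2.11 (adjusted p = 0.00057). With SE from the recovered dispersion in place of the deposited SE its adjusted p was 0.00672. Enzalutamide+DHT differed from enzalutamide by -0.66 (SE 0.46, adjusted p = 1). These 2 comparisons were added after seeing the data and are Wald tests built from the deposited log2 changes. The fall was thus called with VPC-13789 present and not called with enzalutamide present. Whether these 2 responses to DHT differ from each other was not tested. VPC-13789+DHT minus enzalutamide+DHT was -0.63 on the log2 scale (95% interval -1.67 to 0.41, adjusted p = 0.559). GC centred it was -1.03 (95% interval -2.06 to 0.012, unadjusted p = 0.0527, adjusted p = 0.629). On neither scale were the levels with DHT shown to differ between the compounds. The effect of enzalutamide with DHT minus that without DHT was 1.87 (SE 0.64, unadjusted p = 0.00376, adjusted p = 1). Without DHT the log2 changes in the authors' deposited tables were -0.38 for enzalutamide (SE 0.39) and 0.09 for VPC-13789 (SE 0.38), both with an adjusted p of 1.

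**Figure D2:**
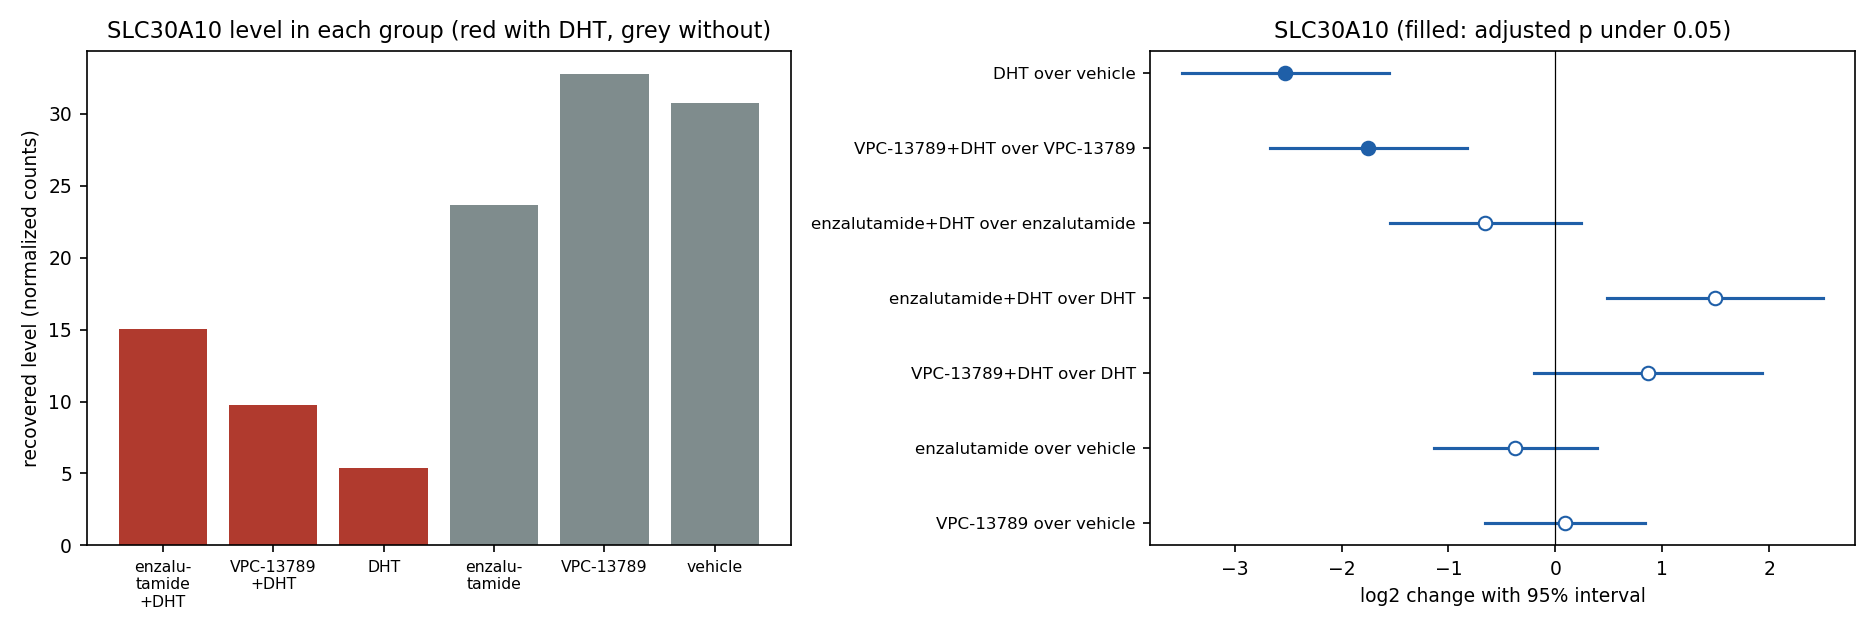
SLC30A10 in each group. Left, recovered level in normalized counts with DHT (red) and without (grey); right, log2 changes with 95% intervals, where filled points have an adjusted p under 0.05. DHT cells are lowest at 5.35 normalized counts, against 30.8 in vehicle cells, and the 2 filled points are DHT over vehicle and VPC-13789+DHT over VPC-13789.

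The other members did not pass the test for DHT. DHT gave a call for 1 of the 26 members with an adjusted p in the authors' deposited table, against 1.87% of all genes tested, and 0.392% of genes were called lower. An unadjusted p under 0.05 was reached by the same member alone, as by 4.43% of genes. Of the 21 members averaging at least 100, 10 were above and 11 below 0, and 16 had a 95% interval within a log2 change of 1 either way. Median log2 changes were -0.12 for the 6 SLC30A genes, 0.01 for the 10 SLC39A genes and 0.11 for the 4 metallothioneins at that level, against 0.01 for all 10819 genes at that level. The tightest estimate was that of SLC39A11, at -0.06 in the authors' deposited table (95% interval -0.23 to 0.11).

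Enzalutamide changed no member past the threshold in the authors' deposited DESeq2 tables. With DHT, 0 of 25 members with an adjusted p were called against DHT, where 0.428% of genes were, and 1 member (SLC30A10) had an unadjusted p under 0.05, as 2.13% of genes did. Without DHT, 0 of 28 were called against vehicle, where 0.00363% of genes were, and 0 had an unadjusted p under 0.05, against 0.675% of genes. Apart from SLC30A10, members averaging at least 100 lay between -0.47 (SLC39A10) and 0.18 (MT2A) with enzalutamide+DHT over DHT in the authors' deposited table.

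VPC-13789+DHT over DHT gave the widest range of log2 changes among the 5 comparisons for members averaging at least 100, and here too DESeq2 called none. Of the 24 members with an adjusted p for VPC-13789+DHT against DHT, the authors' deposited table called 0, where 0.275% of genes were called. An unadjusted p under 0.05 was reached by 5 of 28 members (MT2A, MT1X, MT1F and SLC30A2 higher, SLC39A14 lower) and by 5.48% of all genes. Higher values with such a p made up 4 of 28 members and 1.98% of all genes. Without DHT, 0 of 28 members were called against vehicle, where 0% of genes were, and 0 had an unadjusted p under 0.05, against 0.769% of genes. The intervals were wide: with DHT, 6 of 21 members averaging at least 100 had a 95% interval within a log2 change of 1 either way.

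**Figure D3:**
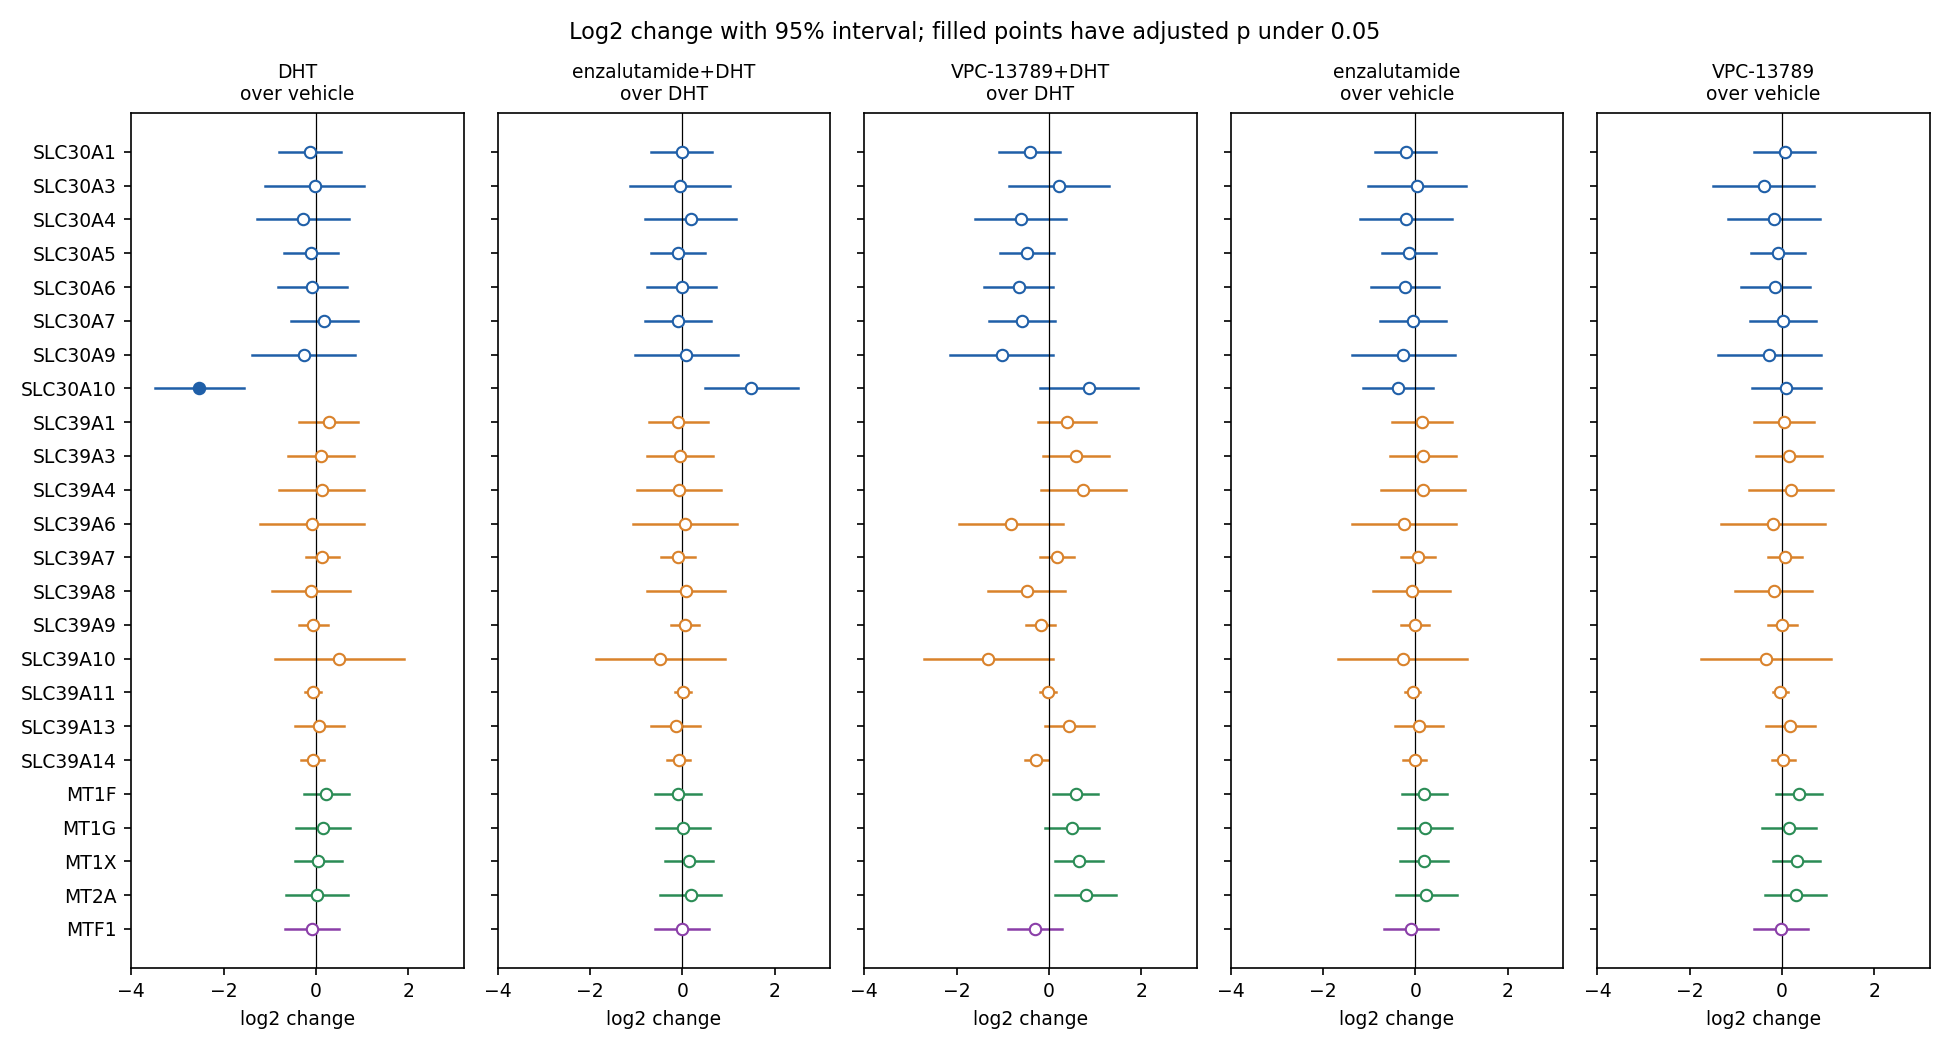
Log2 changes with 95% intervals for the 24 genes averaging at least 10 normalized counts, in the authors' 5 comparisons (SLC30A blue, SLC39A orange, metallothioneins green, MTF1 purple). SLC30A10 with DHT, at -2.52, is the one filled point, the mark of an adjusted p under 0.05; under VPC-13789+DHT the metallothioneins lie right of 0 and most SLC30A genes left of it.

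All 4 metallothioneins averaging at least 100 were highest in VPC-13789+DHT cells, without passing the adjusted test. They lie in the metallothionein cluster of chromosome 16 and encode closely related proteins. The coding sequences below, from GENCODE release 29, show the repeated cysteine codons (TGC and TGT, in capitals) that bind metal, 20 in each of these genes of 61 codons, and how little separates members that shared reads could join.
MT2A: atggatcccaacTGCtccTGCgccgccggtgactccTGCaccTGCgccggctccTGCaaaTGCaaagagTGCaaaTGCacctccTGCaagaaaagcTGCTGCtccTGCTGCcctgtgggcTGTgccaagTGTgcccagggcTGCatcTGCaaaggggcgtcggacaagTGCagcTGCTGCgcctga
MT1X: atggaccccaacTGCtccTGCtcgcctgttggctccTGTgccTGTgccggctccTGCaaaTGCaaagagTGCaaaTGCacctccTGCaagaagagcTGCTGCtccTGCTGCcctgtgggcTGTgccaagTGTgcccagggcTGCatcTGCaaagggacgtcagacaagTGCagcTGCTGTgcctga
MT1F: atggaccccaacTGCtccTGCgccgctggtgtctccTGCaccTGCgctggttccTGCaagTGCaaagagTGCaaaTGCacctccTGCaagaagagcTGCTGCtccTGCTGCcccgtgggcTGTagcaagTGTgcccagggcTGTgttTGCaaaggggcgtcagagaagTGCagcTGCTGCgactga

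MT2A and MT1X were identical at 92.5% of coding bases, MT2A and MT1G at 95.2%, and MT1F and MT1X, the least alike pair of these 4 genes, at 88.7%. Members that share sequence are not independent measures. MT2A (chr16:56608199-56609497, plus strand) had a level of 1809 normalized counts in enzalutamide+DHT, 2770 in VPC-13789+DHT, 1596 in DHT, 1842 in enzalutamide, 1924 in VPC-13789 and 1567 in vehicle cells. Its log2 change with VPC-13789+DHT over DHT was 0.80 in the authors' deposited table (SE 0.34, unadjusted p = 0.0186, adjusted p = 0.406). MT1X (chr16:56682424-56684196, plus strand) stood at 849 in enzalutamide+DHT, 1209 in VPC-13789+DHT, 770 in DHT, 847 in enzalutamide, 925 in VPC-13789 and 743 normalized counts in vehicle cells. VPC-13789+DHT was again the highest group, 0.65 above DHT in the authors' deposited table (SE 0.26, unadjusted p = 0.0129, adjusted p = 0.406). MT1F (chr16:56657694-56660698, plus strand) had 148 in enzalutamide+DHT, 237 in VPC-13789+DHT, 158 in DHT, 154 in enzalutamide, 175 in VPC-13789 and 135 normalized counts in vehicle cells. Over DHT, VPC-13789+DHT differed by 0.58 in the authors' deposited table (SE 0.25, unadjusted p = 0.0196, adjusted p = 0.406). MT1G (chr16:56666731-56668065, minus strand) had 798 in enzalutamide+DHT, 1115 in VPC-13789+DHT, 793 in DHT, 821 in enzalutamide, 784 in VPC-13789 and 708 normalized counts in vehicle cells. Its difference from DHT was 0.49 in the authors' deposited table (SE 0.30, unadjusted p = 0.098, adjusted p = 0.406). MT1H averaged 0.258 normalized counts, too few for any comparison.

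**Figure D4:**
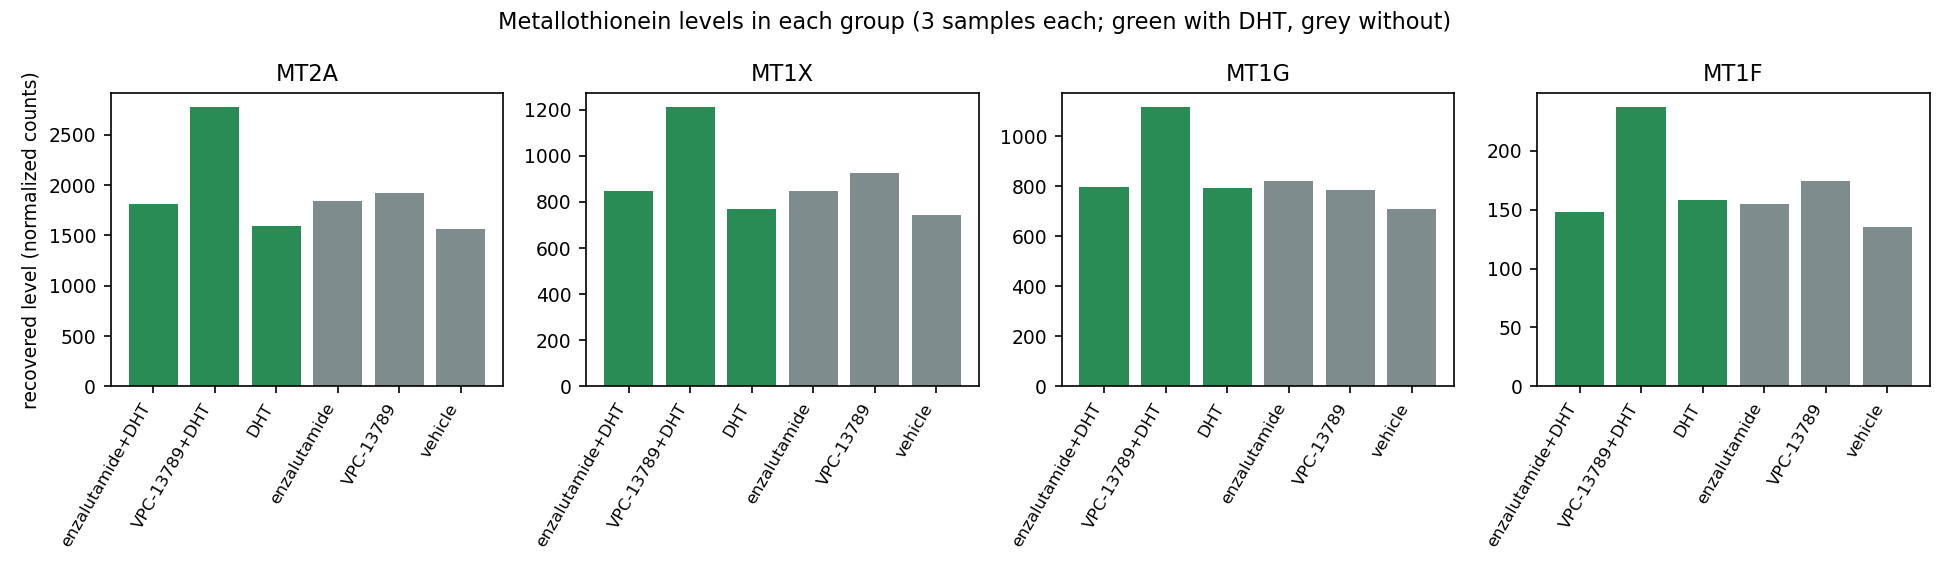
Recovered level of 4 metallothioneins in each group, in normalized counts, each panel on its own axis from 0. The VPC-13789+DHT bar is the tallest in every panel, at 2770 for MT2A, 1209 for MT1X, 1115 for MT1G and 237 for MT1F; no value per sample enters these bars.

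GC content moved with these values. For VPC-13789+DHT over DHT, the log2 changes of 10777 genes averaging at least 100 rose with GC content (Spearman rho 0.83), and those of the 21 members likewise (rho 0.896). Metallothionein transcripts hold 54.3% to 63.0% GC and the 6 SLC30A transcripts averaging at least 100 hold 36.2% to 40.0%. The median log2 change was 0.62 for the 4 metallothioneins, -0.60 for the 6 SLC30A genes and -0.10 for the 10 SLC39A genes, against -0.02 for all genes at that level. GC centred, these medians were 0.26, 0.09 and -0.05. MT2A then stood at 0.32, MT1X at 0.42, MT1F at 0.21 and MT1G at 0.20. With the SE kept as deposited, their unadjusted Wald p lay between 0.113 (MT1X) and 0.503 (MT1G). All 4 stayed above 0, and 5 of the 6 SLC30A genes changed sign to lie above 0. Genes called for VPC-13789+DHT over DHT were 1.96% of those tested after GC centring, with 0 of the 28 members among them. The GC slope was there without DHT too, with rho 0.785 for enzalutamide and 0.754 for VPC-13789 over vehicle across genes. These comparisons without DHT use the same vehicle samples, and VPC-13789 over enzalutamide, whose log2 change does not use them, had rho -0.086. VPC-13789+DHT had rho 0.846 over enzalutamide+DHT and 0.783 over VPC-13789, and these log2 changes use neither the vehicle nor the DHT samples. The slope had the other sign for enzalutamide+DHT, both over DHT (rho -0.324) and over enzalutamide (rho -0.372). Beyond this centring, the part of GC content in the results was not tested.

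**Figure D5:**
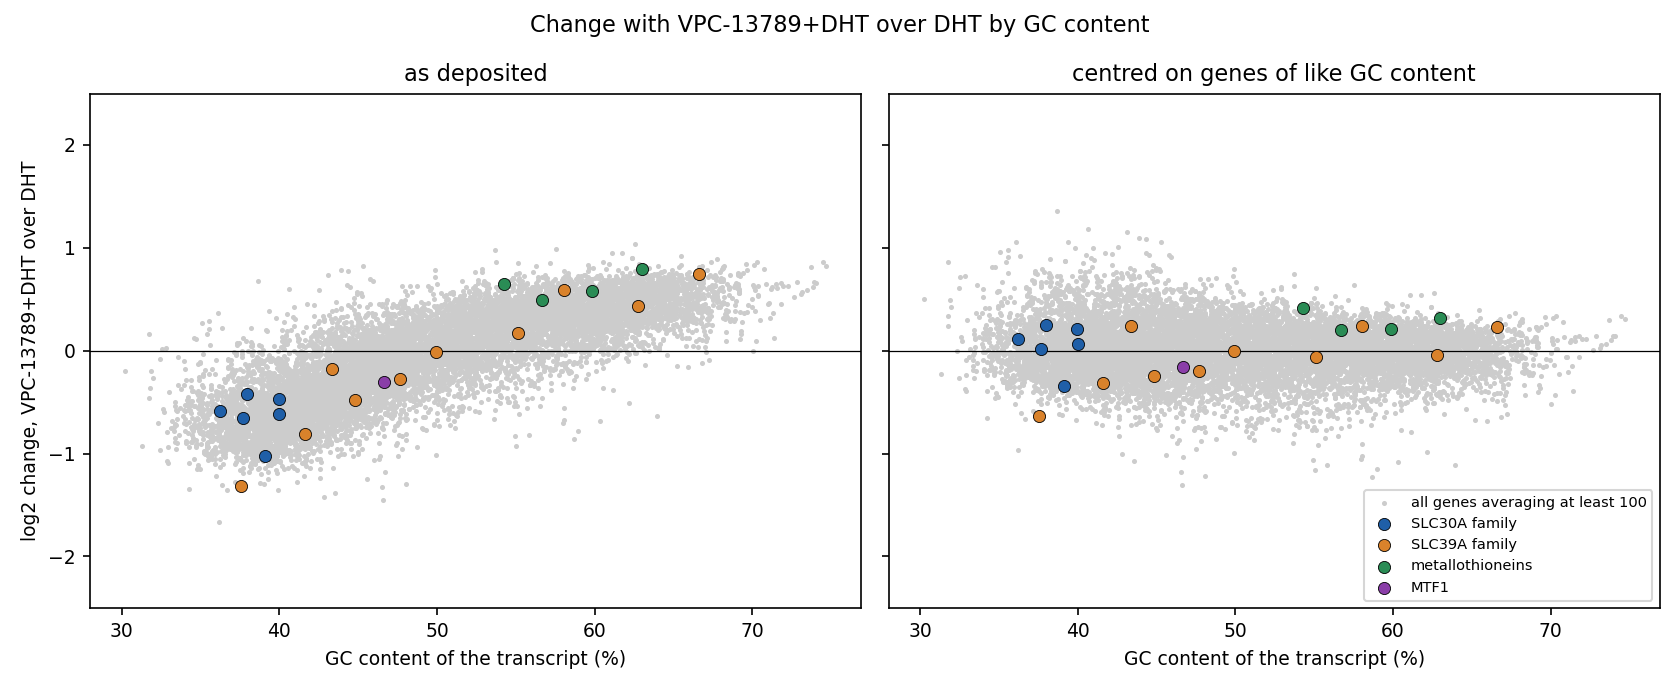
Log2 change with VPC-13789+DHT over DHT against the GC content of the transcript, as deposited (left) and after centring on genes of like GC content (right); grey points are all 10777 genes averaging at least 100, coloured points the 21 members. Left, members climb with the grey cloud (rho 0.896 for members); right, they spread around 0, with the metallothioneins between 0.20 and 0.42.

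Among the exporters, the 6 SLC30A genes averaging at least 100 all had lower values in VPC-13789+DHT than in DHT cells as deposited, and none passed the test. SLC30A4 had 6207 normalized counts in enzalutamide+DHT, 3586 in VPC-13789+DHT, 5486 in DHT, 5764 in enzalutamide, 5899 in VPC-13789 and 6670 in vehicle cells. SLC30A9, which carries zinc out of mitochondria, had 1786 in enzalutamide+DHT, 829 in VPC-13789+DHT, 1685 in DHT, 1681 in enzalutamide, 1667 in VPC-13789 and 2023 normalized counts in vehicle cells. With VPC-13789+DHT over DHT, the authors' deposited table gave -0.61 for SLC30A4 (SE 0.51) and -1.02 for SLC30A9 (SE 0.57). GC centred these were 0.06 for SLC30A4 and -0.34 for SLC30A9. SLC30A5 and SLC30A6 form the Golgi pair that loads zinc into secreted enzymes, and SLC30A7 works beside them. Their log2 changes with VPC-13789+DHT over DHT in the authors' deposited table were -0.47 (SE 0.30), -0.65 (SE 0.38) and -0.58 (SE 0.37), and GC centred 0.21, 0.02 and 0.11. SLC30A1, the plasma membrane exporter that zinc induces through MTF1, stood at 435 normalized counts in enzalutamide+DHT, 328 in VPC-13789+DHT, 439 in DHT, 415 in enzalutamide, 498 in VPC-13789 and 480 in vehicle cells. It differed from DHT by -0.42 with VPC-13789+DHT in the authors' deposited table (adjusted p = 0.416, SE 0.34), and by 0.25 GC centred, so its direction depends on that centring. SLC30A2, a vesicle carrier that supplies zinc to milk, averaged 4.83 normalized counts and had 2.00 in the authors' deposited table for VPC-13789+DHT over DHT (SE 0.82, unadjusted p = 0.0154), with no adjusted p, and 1.63 GC centred. Its levels there, 11.0 normalized counts in VPC-13789+DHT and 2.75 in DHT cells, are near the lower end of what can be counted. SLC30A3, the synaptic vesicle carrier, averaged 12.7 normalized counts.

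Importers of the SLC39A family went both ways in VPC-13789+DHT cells, 4 above and 6 below DHT among the 10 averaging at least 100. SLC39A14, which imports manganese, iron and zinc, was the one with an unadjusted p under 0.05. It had 1707 normalized counts in enzalutamide+DHT, 1492 in VPC-13789+DHT, 1806 in DHT, 1873 in enzalutamide, 1937 in VPC-13789 and 1896 in vehicle cells. VPC-13789+DHT was the lowest group, -0.28 from DHT in the authors' deposited table (SE 0.13, unadjusted p = 0.031, adjusted p = 0.406) and -0.20 GC centred. SLC39A10, a plasma membrane importer, had the largest difference of the family at -1.31 in the authors' deposited table, with an SE of 0.72. Its levels were 439 normalized counts in enzalutamide+DHT, 246 in VPC-13789+DHT, 611 in DHT, 354 in enzalutamide, 337 in VPC-13789 and 430 in vehicle cells. The difference thus sets its lowest group against its highest. SLC39A6 (LIV-1), known from oestrogen-responsive breast cancer, followed with -0.81 (SE 0.57) in the authors' deposited table, and 1344 normalized counts in VPC-13789+DHT against 2361 in DHT cells. On the other side, SLC39A4, the intestinal zinc importer lost in acrodermatitis enteropathica, had 0.75 (SE 0.47) in the authors' deposited table, with 1564 normalized counts in VPC-13789+DHT and 932 in DHT cells. SLC39A3 had 0.59 (SE 0.37) and SLC39A13, a carrier of the early secretory pathway, 0.44 (SE 0.27) in the authors' deposited table. GC centred, SLC39A10 stood at -0.64, SLC39A6 at -0.31, SLC39A4 at 0.23, SLC39A3 at 0.24 and SLC39A13 at -0.04.

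The abundant importers SLC39A7 and SLC39A9 differed little between groups. SLC39A7 had 3032 normalized counts in enzalutamide+DHT, 3651 in VPC-13789+DHT, 3245 in DHT, 3059 in enzalutamide, 3091 in VPC-13789 and 2939 in vehicle cells. SLC39A9 (ZIP9), also described as a membrane androgen receptor, had 2701 in enzalutamide+DHT, 2292 in VPC-13789+DHT, 2594 in DHT, 2678 in enzalutamide, 2706 in VPC-13789 and 2693 normalized counts in vehicle cells. With VPC-13789+DHT over DHT the authors' deposited table gave 0.17 for SLC39A7 (SE 0.19) and -0.18 for SLC39A9 (SE 0.16). GC centred, the signs turned, to -0.07 for SLC39A7 and 0.24 for SLC39A9. SLC39A11, a Golgi carrier of middling GC content (49.9%), had -0.015 there in the authors' deposited table (95% interval -0.19 to 0.16). SLC39A8, a zinc and manganese importer, had -0.48 (SE 0.43) and the little-covered SLC39A1 had 0.40 (SE 0.32) in the authors' deposited table, and GC centred they stood at -0.25 for SLC39A8 and 0.043 for SLC39A1. SLC39A2 and SLC39A5 averaged 1.77 and 0.785 normalized counts.

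The precision of these estimates also went with GC content. Across genes averaging 300 to 3000 normalized counts, the median SE for DHT over vehicle was 0.50 in the eighth with the lowest GC, 0.158 in the fifth eighth and 0.336 in the highest. SLC39A10 (37.6% GC, average 403) had an SE of 0.72 in that table, whereas SLC39A11 (49.9% GC, average 445) had 0.09.

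MTF1 itself was called in no comparison. It had 535 normalized counts in enzalutamide+DHT, 438 in VPC-13789+DHT, 541 in DHT, 539 in enzalutamide, 564 in VPC-13789 and 574 in vehicle cells. Its lowest value, with VPC-13789+DHT, differed from DHT by -0.31 in the authors' deposited table (adjusted p = 0.472, SE 0.30), and by -0.16 GC centred.

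The compounds were set side by side in 2 pairs, at their different doses, by Wald tests on the deposited log2 changes adjusted over all genes. With DHT, 0 of 28 members differed between VPC-13789+DHT and enzalutamide+DHT, where 0.0109% of genes did, and 2 members, MT1F and SLC39A13, had an unadjusted p under 0.05, as 5.49% of genes did. MT1F was 0.68 higher on the log2 scale with VPC-13789+DHT (95% interval 0.19 to 1.17, adjusted p = 0.51) and 0.25 GC centred. SLC39A13 was 0.59 higher (95% interval 0.06 to 1.12, adjusted p = 0.51) and 0.06 GC centred. The other metallothioneins were 0.48 (MT1G) to 0.61 (MT2A) higher with VPC-13789+DHT, with intervals that include 0, and GC centred they were 0.14 (MT1G), 0.22 (MT1X) and 0.086 (MT2A) higher. The 6 SLC30A genes averaging at least 100 were all lower with VPC-13789+DHT than with enzalutamide+DHT, and GC centred 4 of them were higher. GC centring gave 2.3% of genes called in this comparison, with 0 of the 28 members among them. Without DHT, 0 of 28 differed between VPC-13789 and enzalutamide, where 0% of genes did, and 0 had an unadjusted p under 0.05, against 0.914% of genes. The 95% intervals of that difference lay within a log2 change of 1 either way for 17 of the 21 members averaging at least 100. The effect of a compound with DHT minus its effect without DHT was called for 0 of 28 members with enzalutamide (0.0762% of genes) and 0 of 28 with VPC-13789 (0% of genes). An unadjusted p under 0.05 was reached there by 1 member (SLC30A10) and 1.29% of genes with enzalutamide, and by 0 members and 1.43% of genes with VPC-13789. The response to DHT inside enzalutamide was called for 0 of 28 members (0.479% of genes), with 0 members and 2.58% of genes at an unadjusted p under 0.05. Inside VPC-13789 it was called for 1 of 28, SLC30A10, where 0.798% of genes were called and 0.203% were called lower. SLC39A14 also had an unadjusted p under 0.05 there, as 7.15% of genes did. GC centring left SLC30A10 called there, beside 3.33% of genes.

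Other genes of zinc, metal and citrate biology gave few calls. Among all genes tested, 1.87% were called with DHT, 0.428% with enzalutamide+DHT over DHT and 0.275% with VPC-13789+DHT over DHT. Without DHT the shares were 0.00363% for enzalutamide and 0% for VPC-13789 over vehicle. Of 11 further MTF1-linked and heavy-metal response genes in the tables, 1 rose with DHT and the same gene fell with enzalutamide+DHT against DHT. That gene was NDRG1, a stress- and metal-responsive gene that androgen is also known to induce, with 1.67 for DHT (SE 0.24) and -1.25 for enzalutamide+DHT over DHT (SE 0.24) in the authors' deposited tables. The most abundant of the list, TXNRD1, the cytosolic thioredoxin reductase, had -0.18 (SE 0.38) for DHT in the authors' deposited table. Among 12 zinc enzymes and zinc-binding proteins, 1 rose with DHT. It was SORD, the zinc-dependent sorbitol dehydrogenase, which by the authors' deposited table was 0.47 higher on the log2 scale (adjusted p = 0.0369, SE 0.14). GC centring ended that call (adjusted p = 0.0839). For 11 copper, 11 iron and 10 citrate genes, DESeq2 called 0 in each of the 5 comparisons in the authors' deposited tables. Unadjusted p under 0.05 occurred for 2 copper, 1 iron and 0 citrate genes with DHT, and for 3, 2 and 1 with VPC-13789+DHT over DHT. Such a p was reached by 4.43% of all genes with DHT and 5.48% with VPC-13789+DHT over DHT. Citrate synthase (CS), which makes the citrate that zinc preserves, averaged 9895 normalized counts and had 0.10 (SE 0.29) for DHT in the authors' deposited table. Mitochondrial malate dehydrogenase (MDH2), the most abundant of the list, had 0.16 (SE 0.38) there in the authors' deposited table. GC centring added 4 calls over these lists for VPC-13789+DHT over DHT, where 1.96% of all genes tested were called. ATP7B, a copper-exporting ATPase, fell by 0.53 and NDRG1 by 1.02 on the log2 scale. COX17, a mitochondrial copper chaperone, stood 0.44 higher and ADH5, a zinc-dependent alcohol dehydrogenase, 0.45 higher. For the same comparison the authors' deposited table gave 0.019 for COX17 (SE 0.12) and -0.12 for ADH5 (SE 0.084). Both of these rises thus depend on the centring. That table gave -0.36 for ATP7B (SE 0.14) and -0.67 for NDRG1 (SE 0.24).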

How the data were processed

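Polyadenylated RNA of LNCaP cells was sequenced on the BGISEQ-500 platform, with RNA integrity numbers of 9.5 to 10, per the labels' protocols. Per the submitters' processing notes, the tools were FastQC, STAR 2.6.1c, featureCounts and DESeq2, and the genome build was GRCh38.p12. The annotation release and strand setting used are not stated there.

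The 5 tables used hold the authors' comparisons, 27599 rows each, and no values per sample, so levels carry no spread between replicates and the depth of each sample is unknown. The average normalized count is a signal that the authors deposited (baseMean in the headers, linear), and the averages sum to 21181217. The authors deposited the change and its SE as log2 values, the Wald statistic as a score, and p-values both raw and adjusted. Rows whose symbol reads as a date (25) were left out.

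Group levels and dispersions were recovered from averages, log2 changes and SE. A call means a deposited adjusted p under 0.05. A gene that DESeq2 left without an adjusted p was not called. Further contrasts were two-sided Wald tests on deposited log2 values with Benjamini-Hochberg adjustment over all genes: differences between compounds and DHT responses inside a compound used the mean of the squared SE, and interactions their sum. The first holds when the groups have equal variance. These were tested on simulated data, whose settings and outcome are not given here. GC content came from GENCODE release 29, matched by symbol for 27391 genes (99.3%). GC centring subtracts the median change within 20 GC bins, set on genes averaging at least 100. It shifts the log2 change alone and leaves the SE as it was, so spread that goes with GC content stays in the centred p-values and intervals. Alternatives were GC centring, median centring, adjustment over every gene or over genes averaging at least 100, and SE from the recovered dispersion. Promoters came from RefSeq (GRCh38.p14). Python 3.11.15, pandas 2.3.3, numpy 2.4.6, scipy 1.17.1 and matplotlib 3.10.9 were used. The members and gene lists were chosen with earlier results of these data known. Members called, or averaging at least 100 with one of the 4 highest averages or largest changes of their family, are given with values; from each further list, called genes and up to 2 of the most abundant were eligible.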

Additional observations from a re-analysis of the deposited data

How the results depend on the processing

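The counts of members called were the same under every alternative run but 1: adjusting over genes averaging at least 100 gave 0 in place of 1 for DHT over vehicle, and 0 in place of 1 for VPC-13789+DHT over VPC-13789, since SLC30A10 averages less and is not among the genes tested there. Single members were followed one by one in 143 of the 308 pairs of a member and a comparison: in the 5 deposited comparisons those averaging at least 100, and in every comparison SLC30A10, the 4 metallothioneins averaging at least 100 and members with an unadjusted p under 0.05. Of 592 values recomputed for them, 560 kept their direction and side of the threshold and 32, none of them called, changed sign. Only GC centring and median centring shift a log2 change, so no sign could change under the other alternatives. GC centring alone changed the sign of 28 of the 143. The cause was not tested. For DHT over vehicle, GC centring gave MT1X -0.030, MT2A -0.061, SLC30A1 0.10, SLC30A5 0.092, SLC30A6 0.15, SLC39A13 -0.0095, SLC39A6 0.019 and SLC39A9 0.031. For VPC-13789+DHT over DHT it gave SLC30A1 0.25, SLC30A4 0.064, SLC30A5 0.21, SLC30A6 0.019, SLC30A7 0.11, SLC39A13 -0.041, SLC39A7 -0.066 and SLC39A9 0.24. For enzalutamide over vehicle it gave SLC30A5 0.051, SLC30A7 0.19, SLC39A13 -0.046, SLC39A7 -0.0022 and SLC39A9 0.11, and for VPC-13789 over vehicle MTF1 0.013, SLC30A5 0.081 and SLC30A6 0.038. For the enzalutamide effect with DHT minus without it gave MT1X 0.056 and MT2A 0.11, for that of VPC-13789 MT1F -0.066, and for enzalutamide+DHT over enzalutamide MT2A 0.053. Median centring gave MTF1 0.0027, SLC30A1 0.0024 and SLC30A6 0.0034 for enzalutamide+DHT over DHT, and SLC39A11 0.0036 for VPC-13789+DHT over DHT. Over the other 165 pairs, GC centring changed the sign of 32, among them SLC30A1 (0.33), SLC30A5 (0.33) and SLC39A9 (0.18) for VPC-13789+DHT over enzalutamide+DHT; for VPC-13789+DHT over VPC-13789, the SLC30A genes averaging at least 100 with a value above 0 were 4 of 6 GC centred and 0 of 6 without. No paired analysis was possible because the tables hold comparisons and no values per sample, and leaving out single replicates was not run for the same reason.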
